A study of Mus musculus with 5 samples.

Results

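The genes described here are 6 genes around type 2 cytokine signalling in mouse bone marrow-derived dendritic cells (BMDCs): the cytokine genes *Il4*, *Il13* and *Il6* and the receptor genes *Il4ra*, *Il5ra* and *Il9r*. They were taken by name from the authors' table of 1355 genes that differed between *Irf8*-OE and control BMDCs, and all 6 were found in it. The genes of the table were selected on their fold change and adjusted p-value between the groups. Because this is the same contrast in the same 5 samples, the differences below describe the genes and are given without a test.

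Bone marrow of 8-week-old mice on the C57BL/6 background was grown in 200 ng/ml Flt3L and 5 ng/ml GM-CSF, cytokines that drive dendritic cell and myeloid development, to obtain CD103+ dendritic cells. Cells were replated on day 9 and non-adherent cells were collected on days 15 to 16, and the labels list TNF-α stimulation for all samples of both groups, while the protocol gives it as an option, at 20 ng/ml. The 3 *Irf8*-OE samples carried *Irf8* CAG-LSL, an *Irf8*-Flag cassette at the H11 locus behind a stop that Cre removes, together with *Itgax* Cre, which acts in cells that express CD11c. The 2 control samples are wild type in the labels and *Irf8* CAG-LSL without Cre in the paper. How many animals stood behind each sample is not given in the sources used here, so the spread between samples may be technical. As a check of the labels, *Irf8* was measured at 2835 and 2747 normalized counts in the controls and at 7141, 6519 and 6021 after overexpression (log2 fold change 1.23, standard error 0.08), with reads of the transgene and of the native gene not told apart. With scaling factors taken over the listed genes alone, this log2 fold change was 0.28 (DESeq2) and 0.92 (TMM), no longer past the threshold of 1. Such factors assume that most genes do not differ between the groups, whereas the listed genes were all selected for differing.

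IL-4 and IL-13 are the signature cytokines of type 2 immunity, the response against helminths and in allergy, and both signal through the IL-4 receptor α chain to the transcription factor STAT6. Mast cells, basophils, type 2 innate lymphoid cells and T helper 2 cells are their known sources, whereas dendritic cells and macrophages mainly respond to them. The IL-5 receptor α chain is known from eosinophils, basophils and some B cells, and the IL-9 receptor from mast cells and lymphocytes. IL-6 is not a type 2 cytokine in the strict sense: it is made by many activated myeloid and stromal cells and signals through gp130 to STAT3.

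The libraries were separated by other features as well. *Xist*, which silences 1 X chromosome in female cells, was at most 1.12 normalized counts in the controls but ranged from 10772 to 13476 in *Irf8*-OE, whereas 4 Y-linked genes were at 0 in every *Irf8*-OE sample and between 484 and 1385 in the controls, although all mice are labelled male. Genotype and this difference fall on the same samples and cannot be told apart in any value below.

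The sequences just upstream of 5 of these genes are shown first, because some of the factors that are known to bind the marked letters were themselves among the 1355 genes. Each is the RefSeq promoter window of 300 bases on GRCm38.p6, from 250 bases before to 50 after the start of transcription, written 5′ to 3′ on the strand of the gene. Capitals mark GATA on either strand (TATC when read on the gene's strand), the core of the sites of GATA factors, and TGANTCA, the site of AP-1 factors such as Fos and Junb.
*Il4*, chr11:53618616-53618915, minus strand: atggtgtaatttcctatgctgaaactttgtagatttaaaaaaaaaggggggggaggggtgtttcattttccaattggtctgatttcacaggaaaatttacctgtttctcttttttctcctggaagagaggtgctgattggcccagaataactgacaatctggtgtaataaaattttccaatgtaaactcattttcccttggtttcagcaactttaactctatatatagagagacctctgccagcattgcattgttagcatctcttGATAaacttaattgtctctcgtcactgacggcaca
*Il13*, chr11:53634653-53634952, minus strand: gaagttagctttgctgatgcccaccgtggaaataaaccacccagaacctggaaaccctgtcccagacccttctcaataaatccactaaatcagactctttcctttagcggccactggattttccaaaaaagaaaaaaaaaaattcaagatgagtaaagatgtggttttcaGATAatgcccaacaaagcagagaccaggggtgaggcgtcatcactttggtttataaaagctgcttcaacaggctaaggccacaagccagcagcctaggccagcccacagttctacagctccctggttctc
*Il6*, chr5:30012864-30013163, plus strand: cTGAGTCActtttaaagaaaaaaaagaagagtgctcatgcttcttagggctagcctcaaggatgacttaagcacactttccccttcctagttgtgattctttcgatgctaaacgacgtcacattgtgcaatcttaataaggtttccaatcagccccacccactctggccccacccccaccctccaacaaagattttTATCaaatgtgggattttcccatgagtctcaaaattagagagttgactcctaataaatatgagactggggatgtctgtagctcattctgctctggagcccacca
*Il5ra*, chr6:106748988-106749287, minus strand: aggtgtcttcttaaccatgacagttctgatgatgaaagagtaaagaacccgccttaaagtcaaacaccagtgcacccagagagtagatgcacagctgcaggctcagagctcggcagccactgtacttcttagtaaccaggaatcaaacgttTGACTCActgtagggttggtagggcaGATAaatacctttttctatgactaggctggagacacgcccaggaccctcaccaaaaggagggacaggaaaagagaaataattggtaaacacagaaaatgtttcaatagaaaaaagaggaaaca
*Il9r*, chr11:32200230-32200529, minus strand: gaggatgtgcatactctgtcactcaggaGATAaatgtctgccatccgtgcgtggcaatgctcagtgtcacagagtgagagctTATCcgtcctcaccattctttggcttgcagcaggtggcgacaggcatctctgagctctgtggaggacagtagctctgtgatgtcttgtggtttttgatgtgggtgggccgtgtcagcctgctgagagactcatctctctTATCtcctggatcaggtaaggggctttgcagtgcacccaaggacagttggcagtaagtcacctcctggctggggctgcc

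GATA was present in 5 of the 6 windows, and *Il4ra* was the gene without it. *Il9r* had 3 copies, at 222, 168 and 29 bases before the start, *Il13* had 1 at 80 bases before, *Il5ra* 1 at 73 bases before and *Il6* 1 at 54 bases before, and the single copy of *Il4* lay 15 bases after the start. These letters are common, since 57.9% of all 32851 mouse promoter windows hold GATA and 12.6% hold at least 3 copies. TGANTCA was found in *Il6*, at 249 bases before the start, and in *Il5ra*, at 99 bases before, against 7.81% of all windows.

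GGAAA is the core of the sites of NFAT factors that switch on cytokine genes after calcium signals. It occurred 5 times in the *Il4* window and 4 times in that of *Il13*. Of all windows, 0.728% have at least 5 copies and 2.65% at least 4. The shares of windows here and above do not allow for base composition. The *Il4* and *Il13* windows have 38.0% and 46.0% GC, against a median of 52.7% over all windows. *Il6* had 3 copies, *Il4ra* and *Il5ra* 2 each, and *Il9r* had 0. TTC and GAA separated by 3 or 4 bases, the STAT pattern, occurred in *Il4* and *Il5ra* (14.6% of all windows), and the match in *Il4* overlapped a GGAAA. The C/EBP letters TTNNGCAA occurred in *Il4* and *Il6* (10.8% of windows). For the factor that was overexpressed, GAAA and GAA separated by 2 bases, the core of interferon response elements, was found in *Il4* (8.56% of windows) and overlapped another GGAAA there, and GGAA and GAA separated by 2 bases, the composite ETS-IRF pattern, was found in 0 of the 6 windows (8.24% of all). All letters were searched on both strands, and a match is not evidence of binding.

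All 6 genes were lower in *Irf8*-OE BMDCs than in the controls. The receptors *Il5ra* and *Il9r* differed most, at 13.2% and 22.1% of the control mean, while *Il4*, *Il13*, *Il6* and *Il4ra* lay together between 44.8% and 48.8% of it. The median log2 fold change of the 6 genes was -1.13, against 1.14 over all 1355 genes and -1.65 over the 558 that were lower. With limma on log2(normalized counts + 1), a gene was called where its log2 fold change exceeded 1 in either direction at an adjusted p-value below 0.05. All 6 were called lower, as were 41.0% of the genes in the table, and 99.1% were called in either direction, so nothing about the 6 is read from that count. Of the called genes 41.4% were lower, and 65.6% were with DESeq2 size factors taken over the listed genes alone. Control and *Irf8*-OE values were separate for all 6, as they were for 100.0% of the genes in the table. In such bulk samples, fewer cells that express a gene and less of its RNA per cell cannot be told apart.

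**Figure D1:**
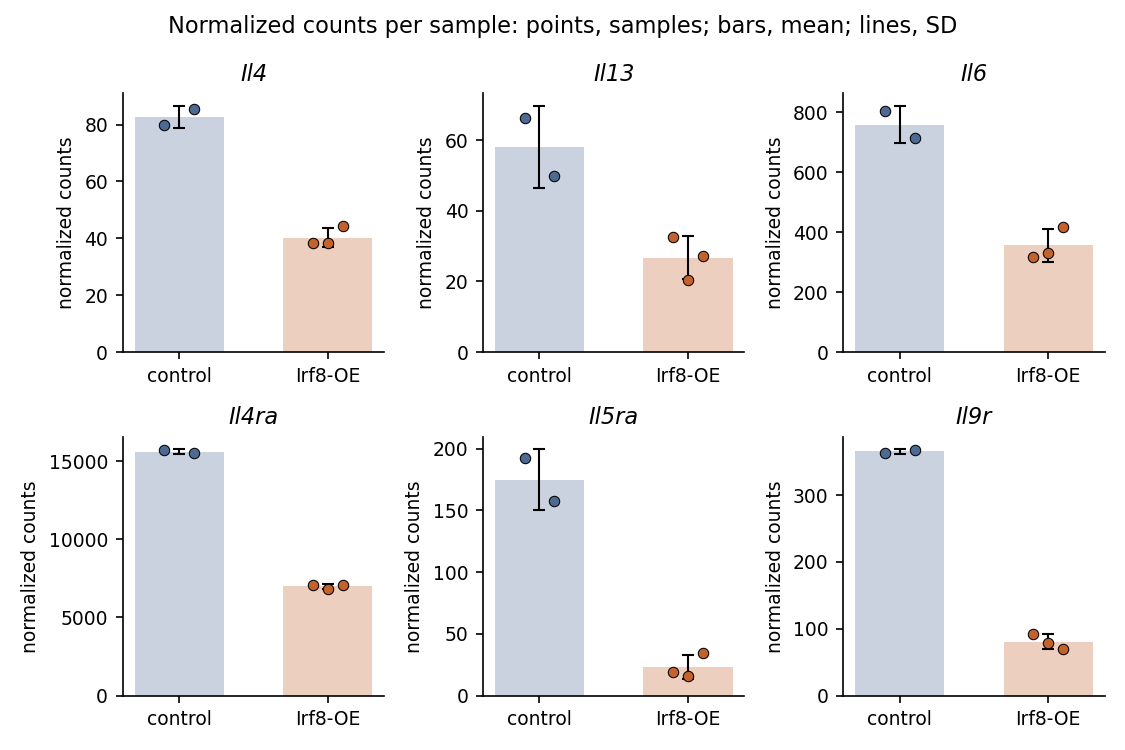
Normalized counts of the 6 genes (vertical axes, linear and starting at 0) in the 2 control and 3 *Irf8*-OE samples. Points are samples, bars group means and lines the SD. Each *Irf8*-OE point lies below both control points, with means at 13.2% (*Il5ra*) to 48.8% (*Il4*) of the control mean.

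*Il4* and *Il13* lie next to each other on chromosome 11 of GRCm38, both on the minus strand. *Il4* (ENSMUSG00000000869) spans 53602982 to 53618669 and *Il13* (ENSMUSG00000020383) spans 53631324 to 53634702, with 12654 bases between them and 4 exons in the principal transcript of each. The same cluster holds *Rad50* and *Il5*, which, together with all other genes within 500000 bases of *Il4*, are not in the table of differing genes and are not analysed here.

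*Il4* had 79.8 and 85.4 normalized counts in the controls and 38.3, 38.3 and 44.2 in the *Irf8*-OE samples, from 40 to 89 reads per sample. The *Irf8*-OE samples lay close together, and the highest of them was at a distance of 1.81-fold from the lowest control. The means were 82.6 ± 3.97 (SD, n = 2) and 40.3 ± 3.40 (SD, n = 3), and the log2 fold change was -1.02 with a standard error of 0.19. This made *Il4* the member nearest to the threshold of 1 that the authors set for their table.

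*Il13*, whose product drives mucus secretion and tissue remodelling, had 66.3 and 49.9 normalized counts in the controls and 32.6, 20.5 and 27.1 in *Irf8*-OE. It had the fewest reads of the 6 genes in the controls, and 22 to 59 over all samples. The lowest control and the highest *Irf8*-OE sample differed by only 1.53-fold, and their 95% Poisson intervals, 37.3 to 65.4 and 22.6 to 45.5 normalized counts, overlapped. These intervals cover counting error only. The means were 58.1 ± 11.6 (SD, n = 2) and 26.7 ± 6.03 (SD, n = 3), and the log2 fold change was -1.10 with a standard error of 0.28.

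Both fold changes of this gene pair depended on single samples. Without the first control that of *Il13* was -0.90 and without the second *Irf8*-OE sample -0.93, and *Il4* moved to -0.97 without the second control and to -0.99 without the first or the second *Irf8*-OE sample, each short of the threshold of 1. The ratio of *Il4* to *Il13* per length was 1.18 and 1.68 in the controls and 1.16, 1.83 and 1.60 in *Irf8*-OE, so it spread as widely within each group as between them.

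*Il6* (ENSMUSG00000025746) lies on the plus strand of chromosome 5, 30013114 to 30019981, with 5 exons. It had 803.6 and 714.9 normalized counts in the controls and 318, 332 and 418 in *Irf8*-OE. The third *Irf8*-OE sample was the highest of its group, and its interval (379 to 460.0) did not reach that of the first (285 to 354), so the *Irf8*-OE samples differed among themselves by more than counting error. The means were 759 ± 62.7 (SD, n = 2) and 356 ± 53.9 (SD, n = 3), and the log2 fold change was -1.10 with a standard error of 0.13.

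*Il4ra* (ENSMUSG00000030748) encodes the receptor chain that IL-4 and IL-13 share. It lies on the plus strand of chromosome 7, 125552120 to 125579474, with 11 exons, and GENCODE places the antisense gene *Gm44876* inside it, whose reads cannot be told apart unless strand was used in counting. It had 15705 and 15486 normalized counts in the controls and 7097, 6831 and 7052 in *Irf8*-OE. With at least 7021 reads per sample it was the most precisely measured of the 6, and the ninth most abundant gene of the table in the controls. The means were 15595 ± 155 (SD, n = 2) and 6993 ± 142 (SD, n = 3), and the log2 fold change was -1.16 with a standard error of 0.05. After quantile normalization over the 1355 genes its log2 fold change was -0.42, no longer past the threshold, whereas it was -2.11 with DESeq2 size factors and -1.47 with TMM factors from the same genes.

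*Il5ra* (ENSMUSG00000005364) encodes the chain that gives the IL-5 receptor its specificity, and lies on the minus strand of chromosome 6, 106710357 to 106749037. It had 192 and 157 normalized counts in the controls and 19.2, 15.9 and 34.1 in *Irf8*-OE. The lowest control was 4.61-fold above the highest *Irf8*-OE sample, the third, whose interval (23.6 to 47.7) overlapped those of the first (11.7 to 29.6) and the second (9.25 to 25.4). The means were 175 ± 24.6 (SD, n = 2) and 23.1 ± 9.74 (SD, n = 3), a 7.58-fold lower mean, and the log2 fold change was -2.94 with a standard error of 0.33. The coefficient of variation in *Irf8*-OE, 42.2%, was the largest of the 6 genes in either group.

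*Il9r* (ENSMUSG00000020279) encodes the specific chain of the IL-9 receptor, on the minus strand of chromosome 11, 32187541 to 32200279, with 9 exons. It had 363 and 368 normalized counts in the controls and 93.0, 78.4 and 70.3 in *Irf8*-OE. The controls were nearly equal, and the lowest of them was 3.90-fold above the highest *Irf8*-OE sample. The means were 365 ± 3.20 (SD, n = 2) and 80.6 ± 11.5 (SD, n = 3), a 4.53-fold lower mean, and the log2 fold change was -2.18 with a standard error of 0.15. *Il5ra* and *Il9r* ranked 44 and 147 among the 558 lower genes of the table by log2 fold change, whereas the other 4 genes ranked between 456 and 544.

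Because normalized counts are not divided by gene length, levels were compared between genes as normalized counts per kilobase of gene length. In the controls *Il4ra* stood at 2598, followed by *Il6* at 313, *Il9r* at 73.8, *Il4* at 67.3, *Il5ra* at 48.9 and *Il13* at 48.2. The ranges over samples of *Il5ra* (44.0 to 53.8) and *Il13* (41.4 to 55.0) overlapped, and those of the other neighbours in this order did not. In *Irf8*-OE the order was *Il4ra* at 1165, *Il6* at 147, *Il4* at 32.8, *Il13* at 22.2, *Il9r* at 16.3 and *Il5ra* at 6.45. Here *Il13* (17.0 to 27.0) and *Il9r* (14.2 to 18.8) overlapped and the other neighbours did not. *Il9r* thus stood above *Il4* in both controls, but *Il4* rested there on 71 and 89 reads and the gap lay within counting error. In all 3 *Irf8*-OE samples *Il9r* was below *Il4*. *Il5ra*, level with *Il13* in the controls, was below *Il13* in all 3 *Irf8*-OE samples.

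**Figure D2:**
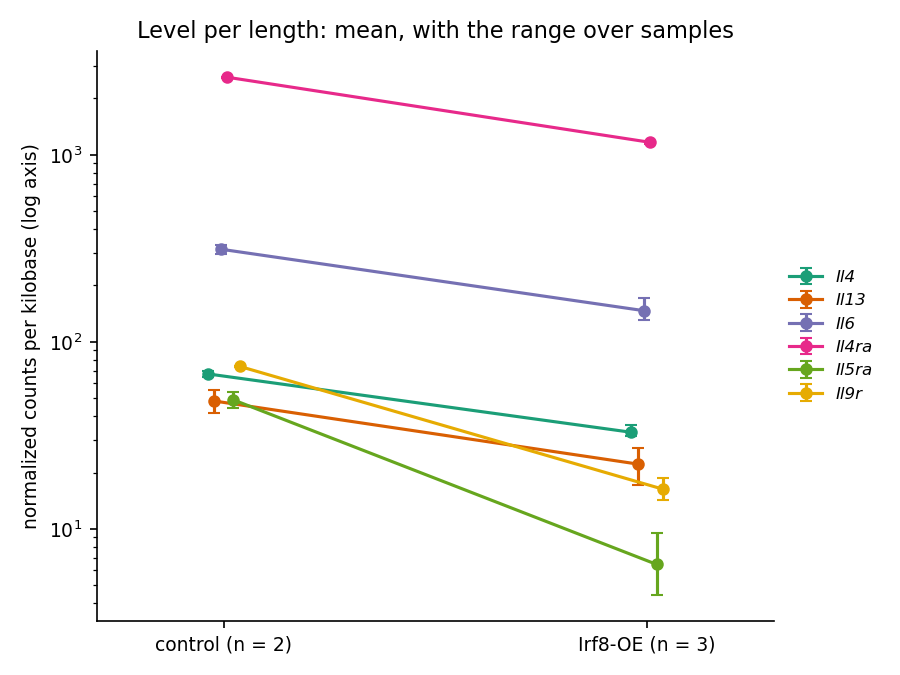
Normalized counts per kilobase (log axis) of the 6 genes in the control (n = 2) and *Irf8*-OE (n = 3) group, with points at the mean and lines over the range of samples. *Il9r* goes from 73.8 to 16.3 and *Il4* from 67.3 to 32.8, with control levels not separated beyond counting error. *Il5ra* ends lowest at 6.45.

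Against *Il4*, the level per length of *Il4ra* was 40.2 and 37.1 times higher in the controls and 37.8, 36.5 and 32.6 times higher in *Irf8*-OE. That of *Il6* was 5.09 and 4.23 times higher in the controls and 4.19, 4.39 and 4.78 times higher in *Irf8*-OE. Both ratios overlapped between the groups, so the proportions of these 3 genes to each other were not separated by group.

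**Figure D3:**
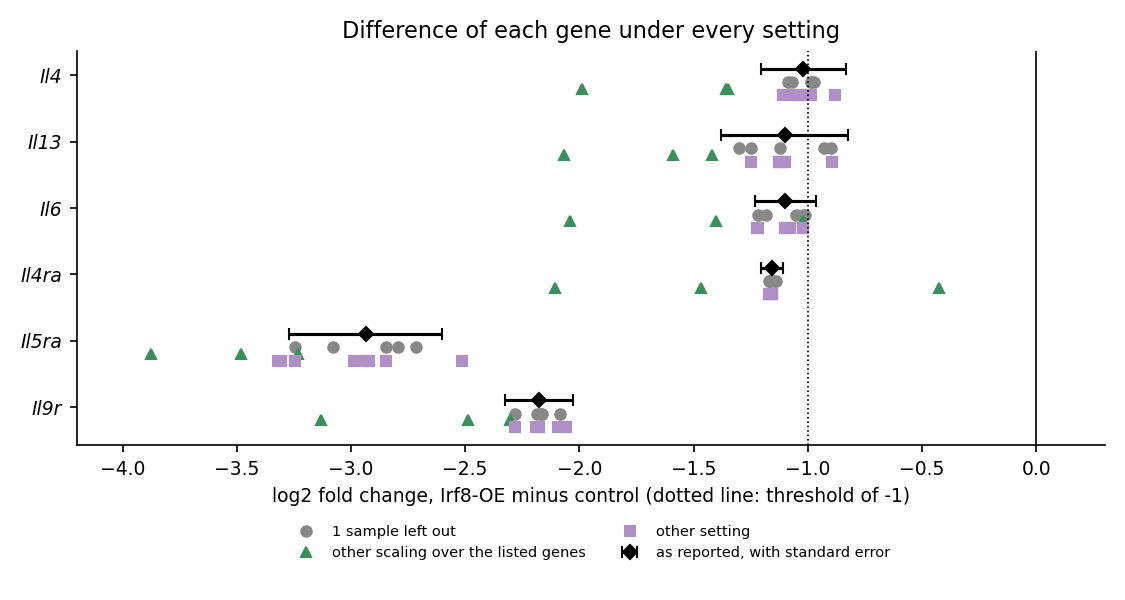
Log2 fold change of each gene (horizontal axis, *Irf8*-OE minus control), as reported with its standard error (diamonds) and with a sample left out, under another scaling or under other settings. All values lie below 0, *Il5ra* and *Il9r* stay below -2, and *Il4*, *Il13* and, in 1 scaling, *Il4ra* have values above the dotted threshold of -1.

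The genes whose profile over the 5 samples was most like that of each member were found by the root mean square (RMS) difference of log2 values, each centred on its own mean, among 1104 genes with a mean of at least 20 normalized counts. This likeness contains the group difference that put the genes into the table, and it says nothing of shared control. Nearest to *Il4* were *Carmil1* (RMS difference 0.025), the long noncoding RNA *F730016J06Rik* (0.041) and *Prkcb* (0.045), a protein kinase C. Nearest to *Il4ra* were the adrenergic receptor gene *Adra2a* (0.013), *Tiam1* (0.028), an activator of Rac, and *Gata1* (0.039), a transcription factor of erythroid cells, mast cells and eosinophils.

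*Il6* was nearest to the noncoding *1110002J07Rik* (0.065), to *Gp1ba* (0.067), which encodes a platelet glycoprotein, and to *Lrp4* (0.070). *Il9r* was nearest to the noncoding *5730460C07Rik* (0.068), to *Cdkn2a* (0.104), an inhibitor of the cell cycle, and to the ETS factor gene *Erg* (0.114). *Il13* and *Il5ra* had looser neighbours, and their samples spread most. For *Il13* they were the pseudogene *AC169509.1* (0.120), *Gfi1b* (0.136), a repressor of the erythroid and megakaryocyte lineage, and the antisense gene *4732440D04Rik* (0.142). *Pkp1*, a desmosome gene, was near to *Il5ra* (0.072), and the next, *Gna14* (0.244) and *Serpina3f* (0.247), were far off.

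Other genes of the pathway were examined as lists, of which those in the table can be described. Of 9 other type 2 cytokine genes, *Il5*, *Il9* and *Il3* included, 0 were in the table, so the ligands of the IL-5 and IL-9 receptors are not analysed here. Of 15 receptor chains 3 were in the table, 2 called lower and 1 higher. *Csf2rb2*, a β chain of the mouse IL-3 receptor and a near copy of *Csf2rb*, from which reads may not be separable, had a log2 fold change of -1.09, *Il1rl1*, the IL-33 receptor, of -2.71, and *Osmr*, the oncostatin M receptor that also pairs with gp130, of 1.08. The partner chains *Il2rg*, *Il13ra1*, *Csf2rb*, *Il6ra* and *Il6st* were not in the table. Of 14 genes of JAK-STAT signalling only *Socs1*, an inhibitor that IL-4 and interferons induce, was listed, with 1994 and 1865 normalized counts in the controls and 826, 723 and 960 in *Irf8*-OE.

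The GATA and AP-1 factors whose letters are marked in the sequences above went in opposite directions. The normalized counts of *Gata2* were 6433 ± 84.7 (SD, n = 2) in controls and 2104 ± 77.0 (SD, n = 3) in *Irf8*-OE, and *Gata1* 361 ± 19.0 and 158 ± 5.06. *Junb* was higher in *Irf8*-OE, with 3648 ± 143 against 8995 ± 597 normalized counts, as was *Fos*, with 499.8 ± 5.21 against 5889 ± 275. *Gata1*, *Gata2* and *Junb* were the 3 of 12 transcription factors of type 2 cells in the table, 2 called lower and 1 higher.

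Among 18 genes known to respond to IL-4 and IL-13, 4 were in the table, 3 called lower and 1 higher. *Ccl24*, an eosinophil attractant, had 70.8 and 78.7 normalized counts in the controls and 15.3, 16.8 and 15.1 in *Irf8*-OE. *Cd209a* went from 66.1 ± 21.9 (SD, n = 2) to 7.06 ± 1.38 (SD, n = 3), whereas the lectin gene *Mgl2* was higher in *Irf8*-OE, 4657 ± 81.1 against 2142 ± 43.3. *Socs1* was the other lower gene. Of 9 genes known to respond to IL-6, 5 were in the table and 4 were not. All 5 were called higher in *Irf8*-OE, as were 58.1% of all genes in the table, and *Il6* itself was lower. A link between *Il6* and these 5 genes was not tested. They are *Fos*, *Junb*, *Saa3* and *Hp*, 2 acute phase genes, and *Timp1*, an inhibitor of metalloproteinases, from 2.01-fold (*Hp*) to 11.8-fold (*Fos*) higher.

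Markers were examined for the cell types that are known to make these cytokines or carry these receptors. Of those in the table, mast cell markers were all lower in *Irf8*-OE, and basophil and eosinophil markers went both ways. The T cell markers *Cd3e* and *Cd4*, which had few reads, and the B cell markers were higher. Of 16 mast cell markers 10 were in the table and all 10 were called lower, as were 41.0% of all genes in the table. The summed level of the 10 was 234874 to 239303 normalized counts for controls and 34016 to 38220 for *Irf8*-OE. The ratio between the means was 6.56. *Cpa3*, the mast cell carboxypeptidase, took most of that sum, with 177303 ± 3068 (SD, n = 2) and 22296 ± 2007 (SD, n = 3), and the tryptase gene *Tpsb2* was 5.96-fold lower. *Kit*, the stem cell factor receptor, was 2.77-fold lower. The single markers were 2.77-fold (*Kit*) to 7.95-fold (*Cpa3*) lower, with a median log2 fold change of -2.23. The fold differences of *Il5ra* (7.58) and *Il9r* (4.53) lay within that range. Those of *Il4*, *Il13*, *Il6* and *Il4ra* (2.05 to 2.23) lay below it. Among the basophil markers that were lower, the range was 3.06-fold (*Gata2*, also a mast cell marker here) to 5.31-fold and held *Il9r*. Among the eosinophil markers that were lower, it was 2.12-fold (*Ear6*) to 4.87-fold (*Ccr3*). *Ccr3* had only 2, 24 and 8 reads in the *Irf8*-OE samples, and the next marker, *Siglecf*, was 3.44-fold lower. Up to *Siglecf* the range held *Il13*, *Il6* and *Il4ra*, and *Il9r* lay inside only through *Ccr3*. *Il4* (2.05) and *Il6* (2.13) lay close to the lower end, on either side of it. None of the 10 mast cell markers was at 0 in any sample.

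Of 10 basophil markers 8 were in the table, 6 called lower and 2 higher, and their summed level was 33180 to 33904 in controls against 11001 to 11280 in *Irf8*-OE. The lower ones include *Cyp11a1*, *Cd200r3*, *Gata2* and the high-affinity IgE receptor gene *Fcer1a*. *Gata2* and *Fcer1a* are on the mast cell list too, so this sum does not stand for basophils alone. The 2 higher ones were the basophil proteases, *Mcpt8* with 178 ± 14.6 (SD, n = 2) against 1233 ± 39.3 (SD, n = 3) and *Prss34* with 118 ± 29.2 against 1453 ± 110.5 normalized counts. Of 10 eosinophil markers 7 were in the table, 5 called lower and 2 higher, with sums of 1526 to 1609 and 681 to 705. *Siglecf* was 3.44-fold and *Ear6*, an eosinophil ribonuclease, 2.12-fold lower. The higher ones were *Prg3*, with 2 reads in each control and 19 to 25 in *Irf8*-OE, and *Epx*, the eosinophil peroxidase, which was at 0 in both controls, where 3 reads would be 2.88 to 3.37 normalized counts, and at 106, 85.9 and 81.4 in *Irf8*-OE. The part of any of these cells in the levels of the 6 genes was not tested.

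Lymphocyte and macrophage markers in the table were all called higher, as were 58.1% of all genes in the table. Of 12 markers of T cells and type 2 innate lymphoid cells 2 were in the table, *Cd3e* and *Cd4*, with a summed level of 5.62 to 7.68 normalized counts in controls against 28.8 to 42.2 in *Irf8*-OE, and *Cd3e* was at 0 in both controls. Of 6 B cell markers 4 were in the table and all 4 were called higher, with sums of 37.1 to 40.3 and 410.2 to 439, the latter mostly from *Jchain*. Of 11 macrophage markers 7 were in the table and all 7 were called higher, with sums of 4616 to 4799 and 22979 to 27752, and the complement genes *C1qa*, *C1qb* and *C1qc* were 13.2-, 4.58- and 5.55-fold higher. The part of these cells in the 6 genes was not tested.

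For the labelled cell type, 3 of 12 dendritic cell markers were in the table. *Itgae*, which encodes CD103, had 51.7 ± 1.56 (SD, n = 2) and 162 ± 17.1 (SD, n = 3) normalized counts, *Cd24a* was 2.61-fold lower in *Irf8*-OE, and *Siglech*, a marker of plasmacytoid dendritic cells, was at 0 in both controls and between 14.4 and 15.1 in *Irf8*-OE. Per kilobase, *Itgae* stood at 11.3 normalized counts in the controls, below all 6 genes, and at 35.3 in *Irf8*-OE. *Itgax*, *Xcr1*, *Clec9a*, *Batf3*, *Flt3*, *Zbtb46* and the antigen presentation genes *H2-Ab1* and *Cd74* are not in the table and are not analysed here, so the label of dendritic cells could be checked only in part.

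**Figure D4:**
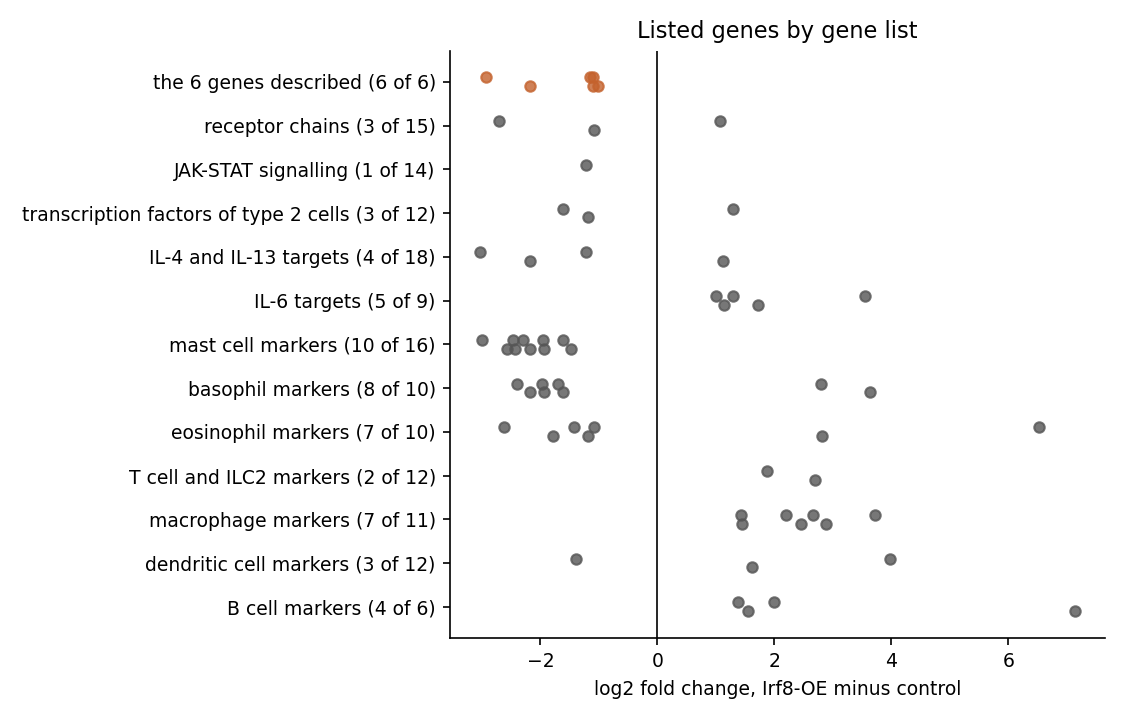
Log2 fold change (horizontal axis, *Irf8*-OE minus control, on the log2(normalized counts + 1) scale) of each gene in the table, by gene list, with how many genes of the list were in it. The 6 genes described (orange) and the 10 mast cell markers lie below 0, the 5 genes that respond to IL-6 and the 7 macrophage markers above 0, and values of genes at 0 in the controls depend on the added 1.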

How the data were processed

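RNA-seq was done on poly-A mRNA as paired ends on an Illumina NovaSeq, and the submitters' processing notes name fastp, HISAT2 2.0.5, featureCounts 1.5.0-p3, DESeq2 1.20.0, edgeR 3.22.5 and mm10, with no roles. The authors deposited signal values that are normalized counts, the reads of a gene over a factor that is constant within a sample. Their table holds 1355 genes past the authors' thresholds. The table's group means, log2 fold changes, p-values and adjusted p-values, computed by the authors, were not used. Gene length, in bases and classed as other, is as the authors deposited it and gave levels per kilobase.

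All values above 0 (100.0% in every sample, within 0.01 reads) were whole multiples of 1 step of 0.934 to 1.12, which gave back the reads. The listed genes held 646123 to 1062127 reads per sample, which is not the library depth. In the third *Irf8*-OE sample the step, 1.004, is close to 1.

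Differences are from limma 3.58.1 (R 4.3.3, trend) on log2(normalized counts + 1), which understates low genes, fitted over all 1355 genes without covariates. On the reads, with the deposited scaling, DESeq2 1.42.0 called 1354 genes and edgeR 4.0.16 called 1353. A test on simulated counts ran limma, DESeq2 and edgeR with the scaling given and most genes unchanged. It does not cover a table of genes that were all selected for differing, nor the settings with other scaling. Coordinates are those of the table, equal to GENCODE vM21 (GRCm38) for all 6 genes, and all 6 symbols matched a RefSeq window. *Il4* has 2 windows, of which the one nearest to its annotated start was used.

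The 6 genes, the lists and the tests were chosen with earlier results of these data known. The genes named are *Irf8*, the 6 genes, the 3 most alike to each, and up to 4 of the most abundant of each list, or any where at most 5 were in the table. *Il2rg*, *Il13ra1*, *Csf2rb*, *Il6ra*, *Il6st*, *Rad50*, *Il5*, *Il9*, *Il3*, *Gata3*, *Itgax*, *Xcr1*, *Clec9a*, *Batf3*, *Flt3*, *Zbtb46*, *H2-Ab1* and *Cd74* are named for their absence, *Gm44876* for its overlap with *Il4ra*, and *Mcpt8*, *Prss34*, *Prg3*, *Epx*, *Ccr3* and *Xist* were named after their values were seen.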

Additional observations from a re-analysis of the deposited data

How the results depend on the processing

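In the 18 alternative settings, none of the 108 values of the 6 genes changed direction, 95 kept their side of the threshold and 13 no longer passed it. *Il5ra* and *Il9r* passed in all 18. With an absolute log2 fold change above 2 required, 518 genes of the table were called against 1343, 2 of the 6 among them, and *Il4* (-1.02), *Il13* (-1.10), *Il6* (-1.10), *Il4ra* (-1.16) and *Irf8* (1.23) were not. With a pseudocount of 10, *Il4* (-0.88) and *Il13* (-0.89) fell short, and with quantile normalization *Il4ra* did (-0.42). With each sample left out in turn, where a lone control was assumed to vary like the *Irf8*-OE samples, 4 to 6 genes were called, and the log2 fold changes ranged from -1.09 to -0.97 for *Il4*, -1.30 to -0.90 for *Il13*, -1.22 to -1.01 for *Il6*, -1.17 to -1.14 for *Il4ra*, -3.25 to -2.72 for *Il5ra*, -2.28 to -2.08 for *Il9r* and 1.17 to 1.29 for *Irf8*.

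Rescaling over the listed genes alone shifted the log2 fold changes of all genes by a median of -0.33 (quantile), -0.95 (DESeq2 size factors) and -0.31 (TMM). *Irf8* then had 0.28 with DESeq2 and 0.92 with TMM, no longer past the threshold. With these DESeq2 size factors the 6 genes lay further from 0, at -1.99 (*Il4*), -2.07 (*Il13*), -2.04 (*Il6*), -2.11 (*Il4ra*), -3.88 (*Il5ra*) and -3.13 (*Il9r*). DESeq2 with these size factors called 851 genes. Relative to the median log2 fold change of all genes, the 6 genes lay between -4.08 and -2.17 as deposited. With quantile normalization they lay between -4.27 and -1.21 relative to its median. These scalings assume that most genes, or the distribution of their values, do not differ between groups. The listed genes were all selected for differing, so that assumption is not met here.

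With the replicate number as a block, *Il4* had -0.99 with numbers from the descriptions, short of the threshold, and -1.09 with numbers from the titles, and the calls of the other 5 genes and of *Irf8* did not change. Over the table, 1271 and 1319 genes were called with these blocks. Deviations of same-numbered samples from their group means correlated between -0.02 and 0.03. With 2 controls these deviations mirror each other, so the check cannot decide whether the numbers pair the samples. DESeq2 and edgeR on the reads without the third *Irf8*-OE sample, chosen after the data were seen, called 1304 and 1322 genes and all 6 described here. The cause of these changes was not tested. Genes that the authors did not call are not analysed here, and the few reads of *Il13* and *Il5ra* limit their fold changes.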
